A study of Mus musculus with 18 samples.

Results

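Inter-alpha-trypsin inhibitors are plasma proteins that the liver builds from a small protease inhibitor and several heavy chains, and the macroglobulins are large plasma proteins that trap proteases. The genes described are *Ambp*, *Itih1*, *Itih2*, *Itih3*, *Itih4*, *Itih5* and *Pzp*, found by their symbol or an older alias in the array annotation. These are 7 of 18193 named genes, read by 9 probe sets, and all 7 passed the filter on low values in the liver arrays. *Itih5* has 3 probe sets and each other gene has 1. The symbol A2m, an older name of *Pzp*, now belongs to a gene of its own with its own probe set, which was not counted as a member.

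RNA was measured on 18 Affymetrix mouse genome arrays from CD-1 mice, an outbred strain, with no allele or agent named for any group. Embryonic liver was taken at 6 stages, daily between 10.5 and 14.5 days post conception (dpc) and once more at 16.5 dpc, with 2 arrays each. Embryos from which the liver had been removed, called the rest of the embryo, gave 1 array for each of the first 3 stages and 1 for 14.5 dpc. Adult livers came from normal females aged 10 weeks, with 2 arrays. Each embryonic sample pooled at least 5 embryos, so a value is a mean over embryos, not split by sex, and the adult arrays hold females only. A treatment text attached to the adult arrays describes a hepatectomy, while their title, source and description give normal liver before any operation, and they are treated here as normal liver. The study asked how the transcripts of developing liver compare with those of adult liver and of the other embryonic tissues.

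*Ambp* encodes a precursor that is cut into alpha-1-microglobulin and bikunin, the light chain that inhibits trypsin-like proteases. *Itih1*, *Itih2* and *Itih3* encode heavy chains, which are joined to bikunin through its chondroitin sulfate chain and can be passed on to hyaluronan in the extracellular matrix by TSG-6, the product of *Tnfaip6*. *Itih4* encodes a related plasma protein that is not joined to bikunin and is known as an acute-phase protein. *Itih5* encodes a heavy-chain relative made in many tissues outside the liver. *Pzp*, pregnancy zone protein, is a macroglobulin, which changes shape when a protease cuts its bait region and encloses it. Hepatocytes are the main source of these plasma proteins, and their precursors, the hepatoblasts, form the early liver bud.

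The stretch just before the start of 5 of the 7 members is shown, leaving out *Itih3* and *Itih5*. Whether these sequences bear on the stage at which a member appeared was not tested. The sequences are RefSeq promoters of assembly GRCm38.p6, which is the assembly of that table and not one named for the arrays. Each runs 5′ to 3′ over the 140 bases before the annotated start, and capitals mark matches to 5 short motifs searched on both strands over 250 bases before the start. The positions are chr4:63154173-63154312 on the minus strand for *Ambp*, chr2:10130684-10130823 on the minus strand for *Itih2*, chr14:30943290-30943429 on the minus strand for *Itih1*, chr14:30886336-30886475 on the plus strand for *Itih4*, and chr6:128526721-128526860 on the minus strand for *Pzp*.
Ambp: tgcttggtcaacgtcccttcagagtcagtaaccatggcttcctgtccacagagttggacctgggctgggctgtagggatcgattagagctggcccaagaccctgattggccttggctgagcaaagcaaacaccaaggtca
Itih2: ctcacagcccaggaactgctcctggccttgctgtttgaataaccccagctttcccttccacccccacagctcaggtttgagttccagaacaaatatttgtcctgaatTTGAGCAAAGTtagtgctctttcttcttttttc
Itih1: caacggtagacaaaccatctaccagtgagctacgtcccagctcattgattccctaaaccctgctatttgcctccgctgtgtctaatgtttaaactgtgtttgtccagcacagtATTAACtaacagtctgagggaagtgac
Itih4: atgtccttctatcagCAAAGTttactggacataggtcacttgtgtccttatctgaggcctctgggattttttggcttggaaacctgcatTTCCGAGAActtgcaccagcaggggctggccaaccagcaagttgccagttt
Pzp: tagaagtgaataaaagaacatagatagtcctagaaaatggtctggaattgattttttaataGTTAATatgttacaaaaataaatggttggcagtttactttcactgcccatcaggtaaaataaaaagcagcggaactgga

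The HNF1 half-site GTTAAT was found before *Itih1*, 27 to 22 bases from the start on the opposite strand, and before *Pzp* at 2 places, of which the match 79 to 74 bases from the start is shown. It was present in 2 of the 7 member promoters and in 6.43% of all 32851 promoters of that length. The HNF4 half-site CAAAGT was found before *Itih2* and *Itih4*, also 2 of 7, against 12.6% of all promoters. In *Itih2* it overlaps a C/EBP match (TTGCNNAA, 9.56% of promoters), and the capitals span both. A STAT match (TTCNNNGAA, 7.02% of promoters) lay 51 to 43 bases before the start of *Itih4* only. None of the 7 promoters held TATAAA, which 12.4% of all promoters did, and those of *Ambp*, *Itih3* and *Itih5* held none of the 5 motifs. These matches describe letters in the reference sequence and say nothing of binding.

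In outline, the light chain precursor *Ambp* and the heavy chain *Itih2* were already bright in liver at 10.5 dpc and by level the other liver members followed in order, *Itih3*, then *Itih1* and *Pzp*, then *Itih4*. By the test, 5 of these 6 were first called above 10.5 dpc at the same stage, 11.5 dpc, and *Itih4* at 13.5 dpc. From 10.5 to 16.5 dpc 6 of the 7 genes rose, for example *Ambp* by 4.80-fold, *Itih3* by 39.4-fold and *Pzp* by at least 52.6-fold. *Itih4*, *Itih1* and *Pzp* rose again by 12-, 4.55- and 4.18-fold between 16.5 dpc and adult liver, while *Ambp*, *Itih2* and *Itih3* were not called there. *Itih5*, by its tested probe set, was low in liver throughout and higher in the rest of the embryo. *Itih1*, a heavy chain, read about as high in unscaled intensity in the rest of the embryo as in liver from 11.5 dpc onward, while its rank within the array was higher in liver at 14.5 dpc.

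Levels are array intensities on a linear scale, and levels of different probe sets are not compared with each other. For the tests, values under 24.8 (the 20th percentile) were set to that floor before log2 was taken. Fold changes are on this floored scale. A fold is given as at least its value where every array of the lower group lay at or under the floor and every array of the higher group above it. A gene was called with limma when its difference reached 1 log2 and its Benjamini-Hochberg adjusted p was under 0.05. Where arrays sit at the floor they share 1 value, which makes the SE and the adjusted p too small. Replicates are named biological in the labels with no further detail, so p-values reflect only how far these samples spread, part of which may be technical. The number of arrays limits the precision.

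Some arrays stood apart. The liver arrays hold 1216 to 1535 values below 0 each and the rest-of-embryo arrays none, with 99th percentiles of 1325 to 2935 and 5553 to 5953, so the tissue comparison crosses 2 forms of values. The 3′ over 5′ ratio of Gapdh, which rises as RNA degrades, reached 2.82 in the first 10.5 dpc liver array (replicate 1), against 0.744 to 0.886 on the other liver arrays. The 6 heart muscle markers summed to 13596 and 7255 on the 10.5 dpc liver arrays and to 1159.7 and 5206 at 12.5 dpc, against 180.4 to 246 at every other embryonic liver stage. The 6 hepatocyte and hepatoblast markers summed to 11568 and 11431 at 10.5 dpc and to 36483 and 36932 at 16.5 dpc. All 6 lay above the floor on every embryonic liver array, and in adult liver *Afp*, the fetal marker, read 13.4 and 7.60.

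*Ambp* (probe set 1416649_at) read 585 and 1135 on the 2 liver arrays (10.5 dpc), 2470.3 and 2349.8 (11.5 dpc), and 2807 and 2493 (12.5 dpc). It then read 3729 and 3557 (13.5 dpc), 3974 and 3908 (14.5 dpc), and 3781 and 4038 (16.5 dpc). Both 10.5 dpc arrays lay below every later liver array, and the pairs at 14.5 and 16.5 dpc overlapped. The mean at 16.5 dpc was 3909 ± 182 (SD, n = 2) against 859.8 ± 389 (n = 2) at 10.5 dpc, a rise of 2.26 ± 0.29 (log2, SE; limma adjusted p = 0.000121). Most of this rise fell in the first day, 1.56 ± 0.29 between 10.5 and 11.5 dpc (adjusted p = 0.00521). Already at 10.5 dpc its intensity was above 92.1% and 97.1% of the probe sets on those arrays.

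*Itih2* (1417618_at), the heavy chain with the earliest signal, read 461 and 942 (10.5 dpc), 1819 and 1642 (11.5 dpc), and 2473 and 2034 (12.5 dpc). Later values were 2933 and 2889.7 (13.5 dpc), 3429 and 3123 (14.5 dpc), and 3298 and 3311 (16.5 dpc). As for *Ambp*, both 10.5 dpc arrays were the lowest of the liver course and replicate 1 was the lower of them. The rise to 16.5 dpc was 2.33 ± 0.39 log2, or 5.02-fold (adjusted p = 0.000802). The first day held 1.39 ± 0.39 of it (adjusted p = 0.0384).

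*Itih3* (1449123_at) started near the floor, at 26.5 and 65.1 on the 10.5 dpc arrays. It read 371 and 285 (11.5 dpc), 708 and 519 (12.5 dpc), 1162 and 1118 (13.5 dpc), 1789 and 1716 (14.5 dpc), and 1643 and 1630.1 (16.5 dpc). No 2 stages up to 14.5 dpc overlapped, and the level at 16.5 dpc lay just below that at 14.5 dpc. This heavy chain rose by 5.30 ± 0.37 log2, or 39.4-fold, from 10.5 to 16.5 dpc (adjusted p = 2.32e-06), with 2.97 ± 0.37 in the first day (adjusted p = 0.000694). The rise was 4.65 log2 without replicate 1 of 10.5 dpc, the array with the Gapdh ratio of 2.82, and 5.95 without replicate 2.

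*Itih1* (1417973_at) had no signal above the floor at 10.5 dpc, where its values were -26.5 and -1.89. It read 68.3 and 52.9 (11.5 dpc), 119 and 98.2 (12.5 dpc), 210.3 and 208 (13.5 dpc), 355 and 340 (14.5 dpc), and 319.8 and 279 (16.5 dpc). The stages up to 14.5 dpc did not overlap, and both 16.5 dpc arrays lay below both 14.5 dpc arrays, a difference that was not called (-0.22 ± 0.23, adjusted p = 0.976). From 10.5 to 16.5 dpc it rose at least 12-fold (adjusted p = 1.16e-06).

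*Itih4* (1431808_a_at), the family member outside the bikunin complex, came last. Its values were -78.5 and -60.3 (10.5 dpc), -26.9 and -43.9 (11.5 dpc), and 49.4 and 11.5 (12.5 dpc). They then climbed to 204 and 157 (13.5 dpc) and 433 and 385 (14.5 dpc), and were 317 and 271 (16.5 dpc). All 4 arrays of the first 2 stages and 1 of 2 at 12.5 dpc lay at or under the floor, and every later array lay above them. The step from 12.5 to 13.5 dpc was 2.35 ± 0.34 log2 (adjusted p = 0.0461), a value that the floor shrinks, and 16.5 dpc was at least 11.8-fold above 10.5 dpc (adjusted p = 1.68e-05). Both 16.5 dpc arrays lay under both 14.5 dpc arrays, by a difference that was not called (-0.48 ± 0.34, adjusted p = 0.911).

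*Pzp* (1417246_at), the macroglobulin, read -36.3 and 15 (10.5 dpc), 84.0 and 50.4 (11.5 dpc), and 329 and 234 (12.5 dpc). It reached 578 and 620.1 (13.5 dpc), 1249 and 1238 (14.5 dpc), and 1278 and 1333 (16.5 dpc). No 2 embryonic stages overlapped, so the order of the liver stages held on every array. It rose at least 52.6-fold from 10.5 to 16.5 dpc (5.72 ± 0.28 log2, adjusted p = 2.74e-07).

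*Itih5* was tested by its probe set 1429159_at, which was not called over this course. Over the 12 embryonic liver arrays it ranged from 71.3 to 161 with a median of 123, and the difference between 16.5 and 10.5 dpc was 0.70 ± 0.36 log2 (adjusted p = 0.162). A second probe set, 1436755_at, ranged from 56.5 to 139.6 over the same arrays. The remaining one, 1441946_at, read 7.94 and 15.7 at 10.5 dpc, both at the floor, and 65.4 and 50.3 at 16.5 dpc, so these groups did not overlap.

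**Figure D1:**
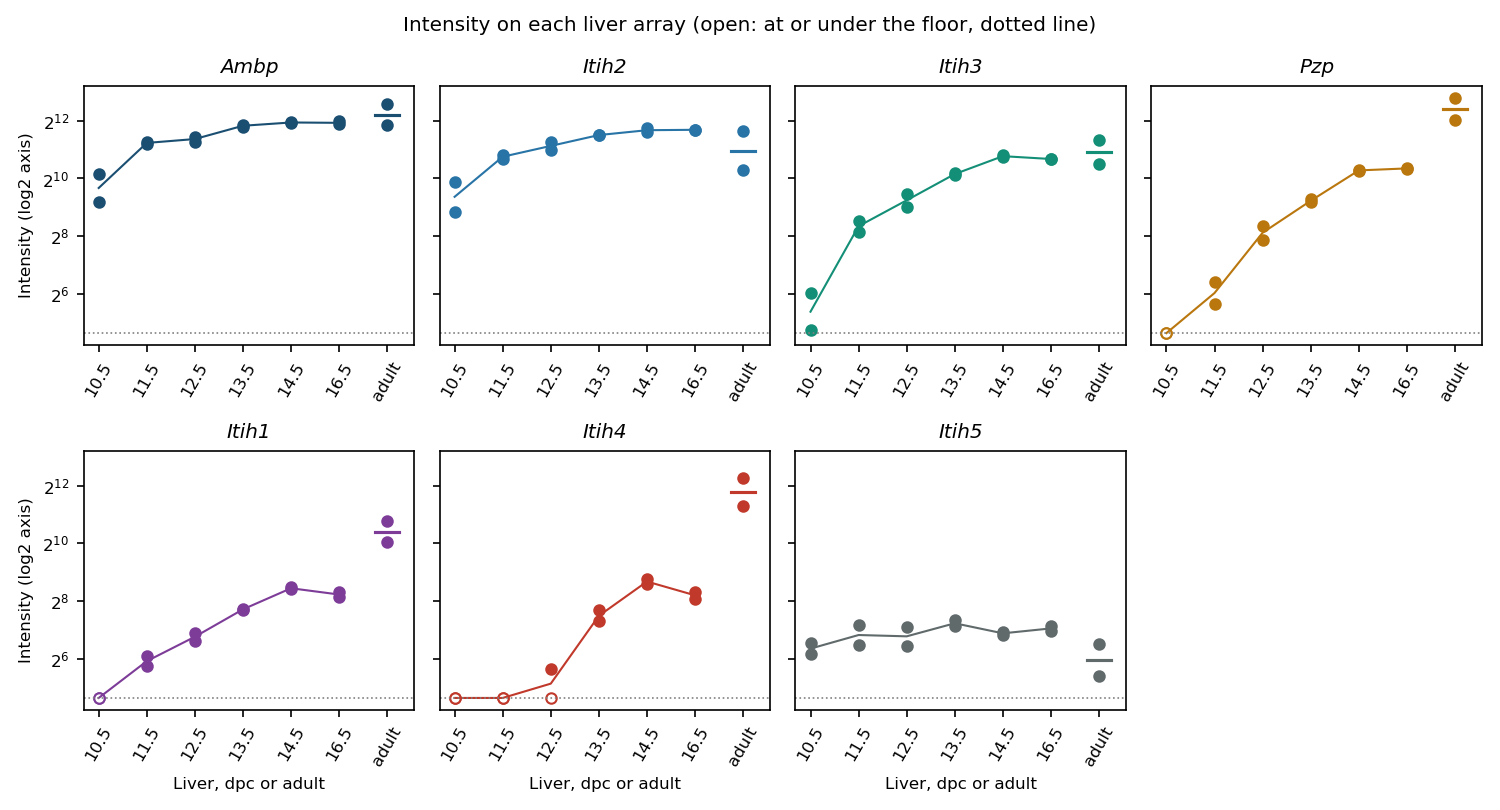
Intensity of each gene (log2 axis) on every liver array by stage in dpc and in adult liver; points are arrays, lines join the embryonic means of log2, bars mark the adult mean of log2, and open points lie at or under the floor of 24.8 (dotted line). *Ambp* and *Itih2* are far above the floor at 10.5 dpc, *Itih1*, *Itih4* and *Pzp* start on it, and *Itih5* stays between 71.3 and 161 in embryonic liver.

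Of the 7 genes, 6 were called higher and 0 lower at 16.5 than at 10.5 dpc. Among the 14125 genes tested 10.4% were called higher and 986 genes lower. The members' median difference was 3.56 log2, against 0.05 over all genes tested. The rise of the members ran beside that of the hepatocyte markers, of which 5 of 6 were called higher (median 1.93), and beside a fall of all 6 heart markers (median -5.20) and of 5 of 6 mesenchyme and stellate cell markers (median -1.53). All 5 erythroid markers (median 3.40) and 3 of 6 macrophage markers (median 1.20) were called higher as well. The part of these markers in the result was not tested. In whole tissue, fewer hepatoblasts and less RNA per hepatoblast cannot be told apart. Without the 10.5 and 12.5 dpc arrays, starting from 11.5 dpc where the heart markers summed to 231 and 207, *Pzp* (4.33 log2), *Itih4* (3.56), *Itih3* (2.33) and *Itih1* (2.31) were still called. *Ambp* (0.70, adjusted p = 0.0493) and *Itih2* (0.93, adjusted p = 0.0789) were not.

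Onset by level was taken as the first liver stage from which both arrays of that stage and of every later embryonic stage lay above 78, the 50th percentile of all values. By this measure onset was at 10.5 dpc for *Ambp* and *Itih2*, 11.5 dpc for *Itih3*, 12.5 dpc for *Itih1* and *Pzp*, and 13.5 dpc for *Itih4*. With a level of 112, the 60th percentile, *Itih1* moved to 13.5 dpc and the other 5 kept their stage, and with 54.9, the 40th percentile, all 6 did. For *Itih5*, whose values lie near these levels, onset was 11.5 dpc at the 50th percentile, 10.5 dpc at the 40th and 13.5 dpc at the 60th, so it has no onset that can be read. An onset by level depends on how brightly a probe set reads, so it orders signals and not transcript numbers.

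By the test, *Ambp*, *Itih1*, *Itih2*, *Itih3* and *Pzp* were first called above 10.5 dpc at 11.5 dpc, *Itih4* at 13.5 dpc and *Itih5* at no stage. The 5 calls at 11.5 dpc stand against 2.97% of all genes called higher, and the call of *Itih4* against 8.88% at 13.5 dpc. Between 11.5 and 12.5 dpc only *Pzp* was called (2.09 ± 0.28 log2, adjusted p = 0.00129), against 2.68% of genes called higher, and between 12.5 and 13.5 dpc only *Itih4*, against 0.0212%. Neither of the last 2 steps called a member in limma, against 0.0566% and 0.0354% of genes called in either direction. From 13.5 to 14.5 dpc *Itih4* (1.19 log2), *Pzp* (1.06) and *Itih1* (0.73) had limma adjusted p of 0.721, 0.553 and 0.856. Their unadjusted p was under 0.05, a level at which the share of all genes was not counted. From 14.5 to 16.5 dpc this held for 0 members. These 7 calls over the successive steps fell to 4 without replicate 1 of 11.5 dpc liver.

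How far each gene had come also differed when its own 16.5 dpc mean was set to 100%. At 11.5 dpc *Ambp* stood at 61.6% and *Itih2* at 52.4%, *Itih1* at 20.2%, *Itih3* at 20% and *Pzp* at 5.15%. At 12.5 dpc *Ambp* and *Itih2* were at 67.8% and 68.2%, *Itih3* and *Itih1* at 37.5% and 36.3%, and *Pzp* at 21.6%. At 13.5 dpc they were at 93.2%, 88.1%, 69.6%, 69.9% and 45.9% in that order, with *Itih4* at 61.4%. By 14.5 dpc each of these 6 genes had reached 95.3% or more, and *Itih4* stood at 139%. The 2 heavy chains *Itih3* and *Itih1*, of which only *Itih3* was above the floor at 10.5 dpc, thus ran close together from 11.5 to 13.5 dpc.

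**Figure D2:**
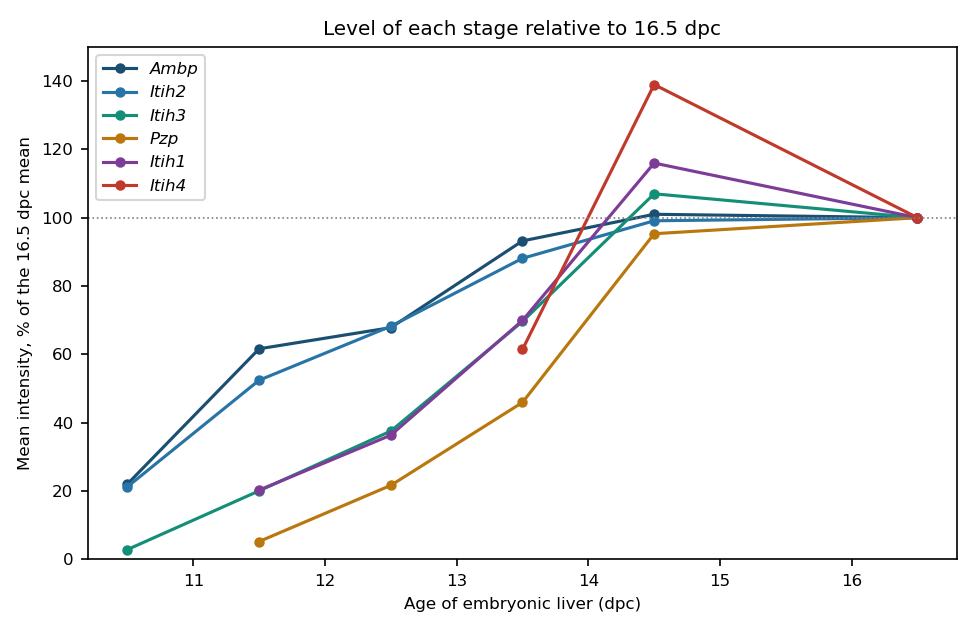
Mean liver intensity at each embryonic stage as a percentage of the same gene's mean at 16.5 dpc, against age in dpc; stages where an array lay at or under the floor are left out, and *Itih5* is not drawn. *Ambp* and *Itih2* run above the others until 13.5 dpc, *Pzp* is at 21.6% at 12.5 dpc, and *Itih4* is highest at 14.5 dpc.

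The course was split at 12.5 dpc to test these differences. Between 10.5 and 12.5 dpc, 5 members were called higher (7.01% of all genes), *Itih3* by 3.87 ± 0.37 log2, *Itih2* by 1.77 ± 0.39 and *Ambp* by 1.70 ± 0.29. *Pzp* rose at least 11.2-fold and *Itih1* at least 4.36-fold, bounds that are not ranked with the measured values. The call of *Itih2* was lost without replicate 1 of 10.5 dpc (1.25, adjusted p = 0.0603) or of 12.5 dpc (adjusted p = 0.0562), and that of *Itih1* with the floor at the 40th percentile (0.98). *Itih4* (0.50, adjusted p = 0.319) and *Itih5* (0.43, adjusted p = 0.414) were not. Between 12.5 and 16.5 dpc, 3 members were called higher, against 0.673% of all genes, namely *Itih4* by 3.07 ± 0.34, *Pzp* by 2.23 ± 0.28 and *Itih1* by 1.46 ± 0.23 (adjusted p = 0.00146, 0.0021 and 0.00833). *Itih3* differed by 1.43 ± 0.37 with an adjusted p of 0.0823, and was called in 4 of 23 alternatives, namely the 40th percentile floor (adjusted p = 0.0173), quantile normalization (0.0358) and either 10.5 dpc array left out (0.0179 and 0.0181). *Ambp* and *Itih2* differed by 0.56 each (adjusted p = 0.375 and 0.523). The call of *Itih1* was lost without replicate 2 of 12.5 dpc or without either 16.5 dpc array, with adjusted p up to 0.0876.

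The ratio of each gene to *Ambp* on the same array tests whether a heavy chain changed more than the light chain. Every ratio carries the same *Ambp* values, so the spreads of all genes look alike in this fit. The p-values of the ratios rest on that shared spread and are likely too small, so these calls are less sure than those of the other fits. From 10.5 to 12.5 dpc *Itih3* rose more than *Ambp* by 2.17 ± 0.38 log2 (limma adjusted p = 1.9e-05) and *Pzp* by 1.78 ± 0.41 (adjusted p = 0.000223), against 0.927% of genes called higher in this ratio. That of *Pzp* is a lower bound, since both of its 10.5 dpc arrays lay at the floor. *Itih5* changed less than *Ambp*, by -1.27 log2, as did 87.2% of all genes. The value of *Itih4* (-1.20, called lower) comes from arrays at the floor, 2 of 2 at 10.5 dpc and 1 of 2 at 12.5 dpc, and shows no smaller change. From 12.5 to 16.5 dpc *Itih4* rose more than *Ambp* by 2.50 ± 0.41 (adjusted p = 0.000273) and *Pzp* by 1.67 ± 0.41 (adjusted p = 0.0221), against 0.0708% of genes. The ratio of *Itih2* to *Ambp* moved by 0.07 ± 0.36 in the first interval and 0.00 ± 0.36 in the second, within its error. *Itih1* was not called in either (0.43 ± 0.39 and 0.90 ± 0.39), nor was *Itih3* in the second (0.87 ± 0.38, adjusted p = 0.315). Of these 6 calls 2 were left without replicate 2 of 12.5 dpc liver, and 4 without replicate 1 of 10.5 dpc liver, so their number rests on those arrays, on which the heart markers were higher than on the paired array.

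Adult liver differed from 16.5 dpc liver in 4 of the 7 members. *Itih4* read 2506 and 4918 in adult liver, against 317 and 271 at 16.5 dpc, and rose by 3.58 ± 0.34 log2 (12-fold, adjusted p = 5.76e-06). *Itih1* read 1047 and 1763 in adult liver and rose by 2.19 ± 0.23 (4.55-fold, adjusted p = 1.11e-05). *Pzp* read 4161 and 7142 and rose by 2.06 ± 0.28 (4.18-fold, adjusted p = 7.68e-05). All adult arrays of these 3 genes lay above every embryonic array, and 10.3% of all genes were called higher. *Itih5* read 42.1 and 90.4 and fell by 1.10 ± 0.36 (2.14-fold, adjusted p = 0.023), where 22.8% of genes fell. All 5 erythroid markers fell over the same interval (median -4.98), from sums of 16074 and 16328 to 435 and 499. Of 6 mesenchyme and stellate cell markers 4 fell (median -1.39), from 2401 and 2434 to 686 and 824. Their part in these differences was not tested. The call of *Itih5* was lost in 5 alternatives, with adjusted p up to 0.212 and, without replicate 1 of adult liver, a difference of -0.55.

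The 3 genes that were bright earliest were not called between 16.5 dpc and adult liver. *Ambp* read 3689.9 and 6172 in adult liver, on either side of the 16.5 dpc arrays (0.29 ± 0.29 log2, adjusted p = 0.428). Over all alternatives its difference ran from -0.08 to 0.90 log2, short of the 1 log2 needed for a call. *Itih3* read 1450.2 and 2616, again on either side (0.25 ± 0.37, adjusted p = 0.605). *Itih2* read 1266 and 3175, both below the 16.5 dpc arrays, with a difference of -0.72 ± 0.39 that was not called (adjusted p = 0.143). By rank within the array both adult arrays lay higher for *Ambp*, at percentile 99.9 against 99.3 at 16.5 dpc. The same held for *Itih3*, at 99.2 against 97.8 and 97.9. For *Itih2* the adult ranks, 98.9 and 99.4, lay on either side of 99.1 and 99.2. Set against the adult mean, the 16.5 dpc level was 79.3% for *Ambp*, 80.5% for *Itih3* and 149% for *Itih2*, but 23.1% for *Pzp*, 21.3% for *Itih1* and 7.92% for *Itih4*.

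The adult arrays were not alike. Replicate 2 read higher than replicate 1 for every member, by 1.67-fold (*Ambp*) to 2.51-fold (*Itih2*), and Gapdh read 3079.8 against 1466, while the array medians were 73.4 and 76.4. The median of all genes between adult and 16.5 dpc liver was -0.24 log2. Of all calls 31.2% were higher, and 43.1% after quantile normalization, under which *Itih2* was 0.03 and *Itih3* was called at 1 log2 (adjusted p = 0.0129). Without replicate 2 of adult liver *Itih2* was called lower (-1.38, adjusted p = 0.00551), *Ambp* was -0.08 and *Itih3* -0.17. The calls of *Itih4*, *Itih1* and *Pzp* held in all 24 alternatives tried for each.

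**Figure D3:**
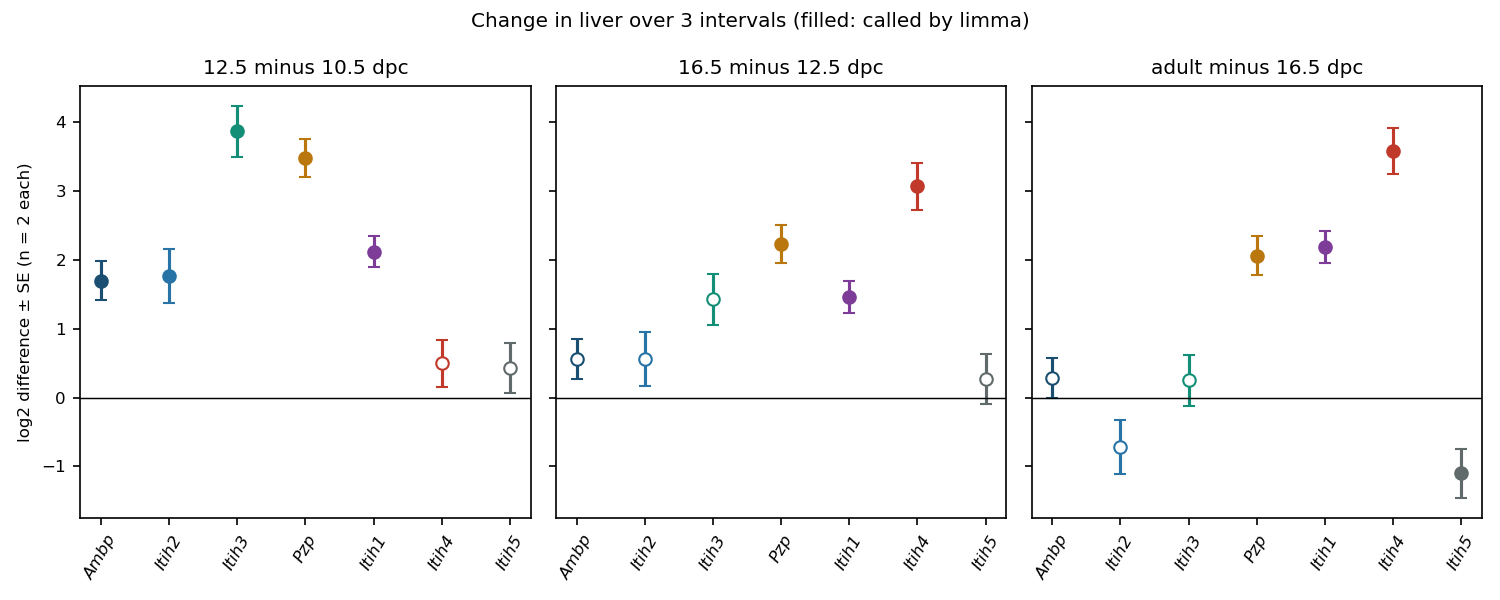
Log2 difference in liver over 3 intervals for each gene, with the SE of the limma fit (2 arrays per group). Filled points were called at an adjusted p under 0.05 and 1 log2. The first-interval values of *Pzp* and *Itih1* are lower bounds, with 10.5 dpc at the floor. That of *Itih4* is not a bound, since 1 of 2 arrays at 12.5 dpc lay at the floor too. *Itih3* has its largest difference, 3.87, in the first interval, *Itih4* is called after 12.5 dpc (3.07) and into adult liver (3.58) only, and *Pzp* and *Itih1* are called in all 3.

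The rest of the embryo was compared with liver at the 4 shared stages. Values are given in the order 10.5 dpc, 11.5 dpc, 12.5 dpc, then 14.5 dpc. Each stage has 1 rest-of-embryo array, which the fit assumes to vary like the groups that supply the spread, and the values have 2 forms, so p-values at a single stage rest on that assumption. In the rest of the embryo *Ambp* read 62.1, 46.7, 96.7 and 172, and *Itih2* read 105, 82.9, 139 and 227. Every liver array lay above every rest-of-embryo array for both, and the means of the 8 liver arrays were 2465 and 1990.4. *Ambp* was higher in liver by 4.67 ± 0.26 log2 (25.5-fold, limma adjusted p = 4.32e-08) and *Itih2* by 3.73 ± 0.26 (13.2-fold, adjusted p = 1.76e-07). The hepatocyte markers rose on these 4 arrays too, from a sum of 2019 at 10.5 dpc to 3805, 6841 and 12533, with *Alb* at 122, 105, 303 and 1219.7. Their part in the signal of *Ambp* and *Itih2* there was not tested.

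*Pzp* lay at or under the floor on all 4 rest-of-embryo arrays, at 2.59, 7.14, 9.57 and 24.8. At 10.5 dpc both liver arrays (-36.3 and 15) were at the floor too, on either side of 2.59, and no fold is given. Liver was at least 2.62-, 11.2- and 50.1-fold higher at the later shared stages. Over all 4 stages the difference on the floored scale was 2.63 ± 0.68 log2 (6.19-fold, adjusted p = 0.0041). It is not a bound, since both 10.5 dpc liver arrays were raised to the floor too. With 1 array left out the difference ran from 1.62 log2 (without 14.5 dpc rest of embryo) to 3.51 (without 10.5 dpc rest of embryo). *Itih3* read 46.0, 53.0, 31.4 and 82.0 outside liver, was not called at 10.5 dpc (-0.15 ± 0.48 log2), and was higher in liver by 2.62, 4.27 and 4.42 log2 at the later stages. Over all 4 stages its difference was 2.79 ± 0.61 (6.91-fold, adjusted p = 0.00134), and ran from 2.25 without the 14.5 dpc rest-of-embryo array to 3.77 without that of 10.5 dpc.

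*Itih1* read 171, 69.2, 108 and 338 in the rest of the embryo. At 10.5 dpc, where both liver arrays were below 0, the rest of the embryo was at least 6.88-fold higher (adjusted p = 2.09e-05). At the later stages the tissues lay within 0.20 log2 of each other, 69.2 beside 68.3 and 52.9 at 11.5 dpc, 108 beside 119 and 98.2 at 12.5 dpc, and 338 beside 355 and 340 at 14.5 dpc. The difference over the 4 stages was not called (-0.73 ± 0.39, adjusted p = 0.0986), and was -0.05 without the 10.5 dpc rest-of-embryo array. Outside liver, both *Itih1* and the hepatocyte marker sum rose from 11.5 dpc on, and at 10.5 dpc *Itih1* read 171 beside a marker sum of 2019. The part of these markers in its signal was not tested.

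*Itih4* read 23.7, 36.5, 36.1 and 42.0 outside liver, close to the floor at each stage. It was higher in liver at 14.5 dpc alone (9.72-fold, adjusted p = 8.78e-05), and the difference over the 4 stages was 0.67 ± 0.51 log2 (adjusted p = 0.233). *Itih5*, the member known from other tissues, was the reverse. It read 259, 229.6, 295 and 1481 in the rest of the embryo, above every liver array at each stage, and was lower in liver (-1.95 ± 0.36 log2, 3.86-fold, adjusted p = 0.000394; -1.38 without the 14.5 dpc rest-of-embryo array). The gap was 3.19-fold at 10.5 dpc and 12.6-fold at 14.5 dpc. Its second probe set, 1436755_at, read 138, 130.1, 89.0 and 335 outside liver, and 1441946_at read 33.2, 31.4, 43.0 and 195, so all 3 were highest at 14.5 dpc. At 12.5 dpc 1436755_at was lower outside liver, with 89.0 beside 118 and 113 in liver. At 11.5 dpc 1441946_at lay between its liver arrays, with 31.4 beside 6.35 and 34.1. At the other shared stages each of these probe sets read higher outside liver than on both liver arrays. Mesenchyme and stellate cell markers were highest on the 14.5 dpc array as well, with a sum of 31956 against 12196 to 19027 on the other rest-of-embryo arrays. Their part in the result was not tested.

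At single stages 12.7%, 12.5%, 14.2% and 14.3% of all genes were called higher in liver and 51.1%, 45.6%, 47.2% and 49.7% lower. Over all 4 stages, 4 members were called higher in liver (14% of all 14895 genes tested) and 1 lower (51.2%). The median over all genes was -1.04 log2, so the tissue differences are also given relative to it, as 5.71 for *Ambp*, 4.76 for *Itih2*, 3.83 for *Itih3*, 3.67 for *Pzp*, 1.71 for *Itih4*, 0.30 for *Itih1* and -0.91 for *Itih5*. Of all calls 21.4% were higher in liver, and 32.3% after median centring, 50% after quantile normalization and 50.9% with each array centred on the genes tested. Under the last of these *Itih4* was also called (1.51, adjusted p = 0.0241), *Itih1* turned to 0.10 and *Itih5* was still lower (-1.11, adjusted p = 0.0103). Within-array ranks need no scaling, and on the rest-of-embryo arrays they ran from the 32.5th to the 60th percentile for *Ambp*, from the 23.7th to the 44.4th for *Itih3* and from the 69th to the 93rd for *Itih5*. The rank of *Itih1* was 62.9 in the rest of the embryo and 0.902 and 2.36 in liver at 10.5 dpc, and 42.6 against 48.7 and 40.6 at 11.5 dpc. It was 52.9 against 63.3 and 57.6 at 12.5 dpc, and 72.4 against 86.1 and 85.8 at 14.5 dpc, so by rank liver was the higher tissue at these last stages.

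**Figure D4:**
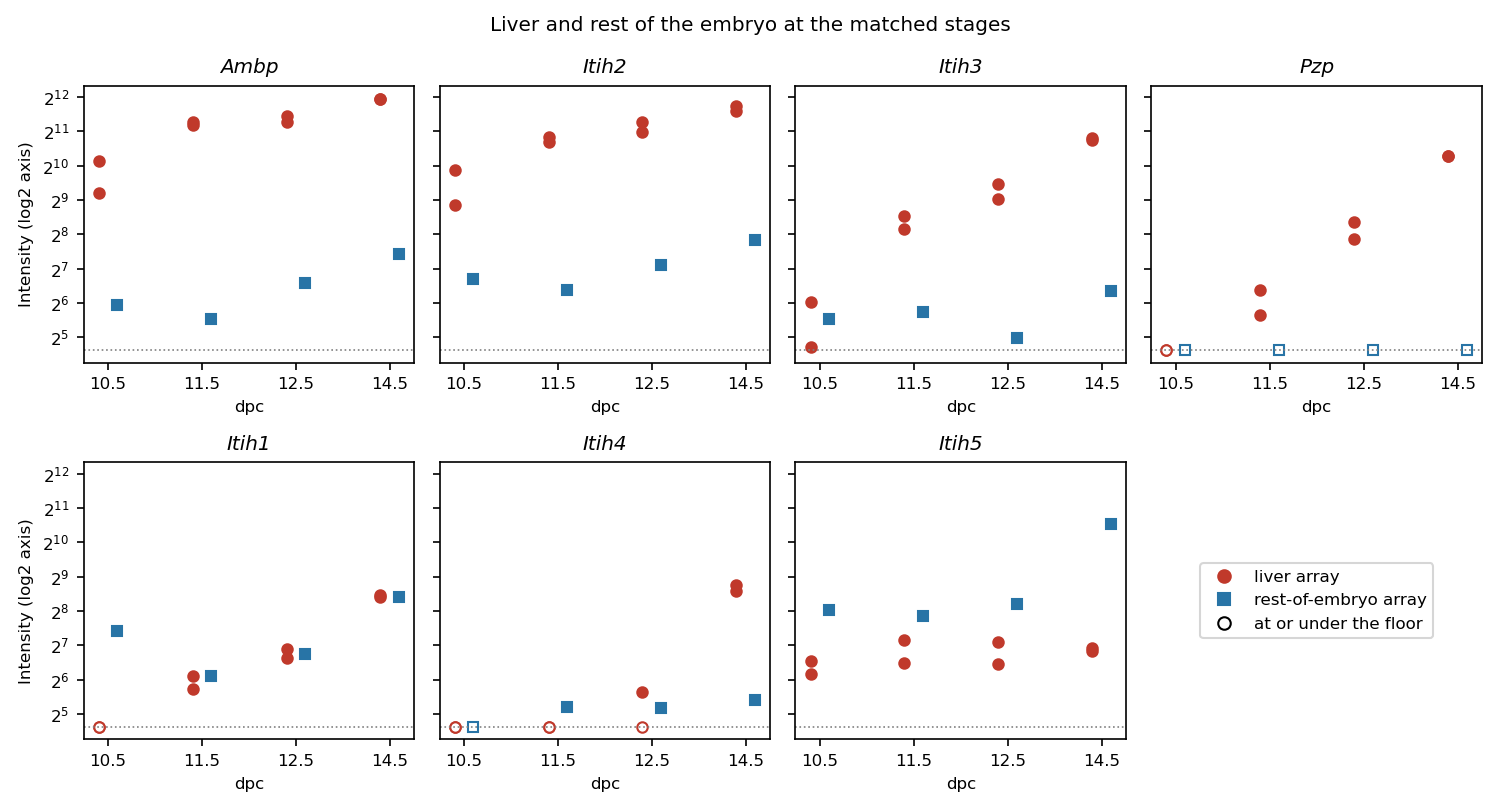
Intensity (log2 axis) of each gene on liver arrays (circles) and rest-of-embryo arrays (squares) at the 4 shared stages in dpc; open symbols lie at or under the floor of 24.8 (dotted line). *Ambp* and *Itih2* are separated at every stage, *Itih1* has similar unscaled intensity in both tissues from 11.5 dpc, and *Itih5* is higher in the rest of the embryo, 1481 at 14.5 dpc.

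The tissue difference changed with stage for 4 members. It grew in favour of liver by 1.43 ± 0.14 log2 per day for *Pzp* (limma adjusted p = 0.00023), by 1.06 ± 0.29 for *Itih3* (adjusted p = 0.0313) and by 0.89 ± 0.25 for *Itih4* (adjusted p = 0.0347), against 5.09% of all genes. For *Itih5* it moved by -0.56 ± 0.16 per day (adjusted p = 0.0387), as 8.95% of genes did in that direction. Over the alternatives the call of *Itih5* was lost in 9 of 22 and its sign turned in 1. The call of *Itih3* was lost in 5 of 22, that of *Itih4* in 5 of 20 and that of *Pzp* in 1 of 22. The slopes of *Pzp* and *Itih4* hold floored values. *Pzp* lay at or under the floor on all 4 rest-of-embryo arrays and both 10.5 dpc liver arrays, and *Itih4* on both liver arrays at 10.5 and 11.5 dpc. *Ambp* (0.07 ± 0.18) and *Itih2* (0.20 ± 0.17) were not called, nor was *Itih1* (0.58 ± 0.19, adjusted p = 0.0539). The slope of *Itih1* was called in 5 of 22 alternatives, with adjusted p down to 0.0115 under quantile normalization. It ran from 0.16 without the 10.5 dpc rest-of-embryo array to 1.26 without that of 14.5 dpc. With 1 rest-of-embryo array per stage these slopes rest on few arrays. Without that of 14.5 dpc none of the 4 was called, with *Pzp* at 1.43 (adjusted p = 0.067) and *Itih5* at 0.01.

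Across the 14 liver arrays the members' courses were alike to different degrees. *Itih1* and *Pzp* correlated with r = 0.988, *Itih1* and *Itih4* with r = 0.956, *Ambp* and *Itih3* with r = 0.983, and *Ambp* and *Itih2* with r = 0.906, while *Itih2* and *Itih4* had r = 0.472. Correlations of *Itih5* with the others ran from -0.215 to 0.595. The closest courses were sought among the genes tested in liver, with predicted and clone-named genes passed over. They were those of *Itih3* for *Ambp* (0.983), *Serpinf2*, which encodes alpha-2-antiplasmin, for *Itih2* (0.995), and *Serpind1*, heparin cofactor, for *Itih3* (0.995). The others were *Hagh* for *Itih1* (0.996), *Serpina11* for *Itih4* (0.986), *Uroc1* for *Pzp* (0.993) and *Dmac2l* for *Itih5* (0.925). By rank of likeness among the genes searched, *Itih2* was number 127 for *Ambp*, while *Itih4* was number 143 and *Pzp* number 12 for *Itih1*. These Pearson r describe arrays that share stage and tissue composition.

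*Itih4*, *Itih3* and *Itih1* are neighbours on chromosome 14, in that order among protein-coding genes. By level they were first seen at 13.5, 11.5 and 12.5 dpc, an order that depends on how brightly each probe set reads. By the test *Itih3* and *Itih1* were both first called above 10.5 dpc at 11.5 dpc, and *Itih4* at 13.5 dpc. *Nek4*, the next gene beyond *Itih1*, was not called (-0.19 log2 from 10.5 to 16.5 dpc, adjusted p = 0.63). *Itih2* and *Itih5* are neighbours on chromosome 2. They lay on opposite sides of the tissue comparison, with *Itih2* higher and *Itih5* lower in liver.

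Partner genes of the inhibitors moved in both directions or were not called. Of 13 tested genes for hyaluronan and its binding proteins, 2 rose and 3 fell between 10.5 and 16.5 dpc (median 0.25 log2, all genes 0.05). Among all 14125 genes tested 10.4% were called higher and 986 genes lower. *Stab2*, a hyaluronan receptor of liver endothelium, rose by 2.00 log2 and *Lyve1*, another, by 1.07. *Vcan*, a hyaluronan-binding proteoglycan, and *Hapln1*, a link protein, had differences of -3.16 and -3.03, falling as the mesenchyme and heart markers did. The fall of *Hapln1* is a lower bound, since both of its 16.5 dpc arrays lay under the floor. *Tnfaip6* was not called (-0.50, adjusted p = 0.161). It was lower in liver than in the rest of the embryo (-2.20 log2, limma adjusted p = 3.49e-07), where 51.2% of all genes were called lower (median -1.04). None of 11 tested genes for chondroitin sulfate assembly and precursor cleavage was called between 10.5 and 16.5 dpc in limma (median 0.04), among them *Furin*, a precursor-cleaving protease, at -0.56 (adjusted p = 0.0167), and 6 of the 11 had an unadjusted p under 0.05. From 16.5 dpc to adult liver 2 rose, *Furin* (1.31) and *Pcsk6* (1.02), another such protease, and 2 fell, *Chsy1* (-3.36) and *Csgalnact2* (-1.27), which take part in building chondroitin sulfate. Of all genes 10.3% were called higher and 22.8% lower over that interval.

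Other macroglobulin and thioester genes took their own courses. *A2m*, alpha-2-macroglobulin, read 208 and 137 (10.5 dpc), 709 and 735 (16.5 dpc), and 151 and 197 in adult liver. It rose by 2.10 log2 to 16.5 dpc (adjusted p = 7.71e-05) and fell by 2.06 from there to adult liver (adjusted p = 3.68e-05), where *Pzp* rose. *Mug1*, a murinoglobulin, was below 0 on all 12 embryonic liver arrays and read 1473 and 3741 in adult liver. *Hc*, a complement component of the same superfamily, rose in both intervals (2.74 and 1.49). From 10.5 to 16.5 dpc this list of 5 tested genes had 3 calls, all higher (median 1.12).

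Of 18 acute-phase genes and regulators, 10 rose and 2 fell from 10.5 to 16.5 dpc (median 1.52), among them *Hpx*, which binds haem, by 3.27. *Apcs* rose by at least 3.05, since both of its 10.5 dpc arrays lay under the floor. *Socs3* and *Il6st*, of the interleukin 6 pathway, had differences of -1.20 and -1 log2. From 16.5 dpc to adult liver 13 rose and 0 fell (median 2.24, all genes -0.24), where 10.3% of all genes rose. *Socs3* (2.97) and *Il6st* (1.89) were among those that rose. *Hp*, haptoglobin, like *Itih4* came late in the embryo, with 47.4 and 41.1 (13.5 dpc) and 121 and 117 (16.5 dpc), and read 2875 and 5334 in adult liver. *Orm1* was at 25.6 or lower on all embryonic liver arrays and read 1968 and 3626 in adult liver. Among 9 tested protease genes that such inhibitors can act on, 6 rose from 10.5 to 16.5 dpc (median 2.39), where 10.4% of all genes did. *Plg*, plasminogen, rose by 3.59 and *Klkb1*, plasma prekallikrein, by 3.50. *Prtn3* (3.00), *Elane* (2.52) and *Ctsg* (2.39), which encode granule proteases of neutrophils, rose too. From there to adult liver *Prtn3* (-4.15) and *Ctsg* (-1.82) fell and *Elane* (-0.89) was not called.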

How the data were processed

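RNA was extracted with Trizol and hybridised as biotinylated cRNA to Affymetrix arrays, per the labels' protocols. The values are the probe set intensities deposited by the authors as 1 table of 45101 probe sets on 18 arrays. Summarisation and scaling are not given in the sources used here. Probe sets with 1 symbol in the array annotation (34945, against 932 with several and 9211 with none) gave 18193 genes, each read by whichever of its probe sets had the highest mean in log2. Intensities were floored at 24.8 and taken to log2. Genes above 78 on at least 2 arrays of a fit were tested, 14125 over the 14 liver arrays and 14895 over the 12 arrays of the shared stages. The tissue difference over these 12 arrays was fitted with stage as a factor. Single-stage tissue differences came from all 18 arrays (15543 genes). Tests used limma 3.58.1 in R 4.3.3 (lmFit, eBayes with trend, two-sided, Benjamini-Hochberg over all genes of a comparison). The slope fit on the same 12 arrays held tissue, dpc as a number and their product, and a slope was called at 0.25 log2 per day. The code was tested on simulated data. Replicate numbers did not pair the arrays. Groups came from source names. The members, the gene lists and the rule that names genes (all members, the most alike courses, and up to 2 called genes each way per list) were chosen with earlier results of these data known. Other genes named for partner pathways were picked after their values were seen. Alternatives were other floors, filters, scalings, probe set rules, fits and arrays left out.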

Additional observations from a re-analysis of the deposited data

Results flagged for a closer look

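The difference between liver and the rest of the embryo changed with stage, by a test of the interaction itself, for 4 members. The change per day was 1.43 log2 for *Pzp*, 1.06 for *Itih3* and 0.89 for *Itih4*, towards liver, and -0.56 for *Itih5*, towards the rest of the embryo. Each rests on 8 liver arrays and 4 rest-of-embryo arrays whose values have 2 forms.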

How the results depend on the processing

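Over 42 results for single members and 962 alternative values, 906 kept direction and side of the threshold, 33 lost the call, 12 gained it and 11 changed sign. The count of members called kept within 1.5 times at 16.5 against 10.5 dpc (6, range 4 to 6), 12.5 against 10.5 dpc (5, 4 to 5), 16.5 against 12.5 dpc (3, 2 to 4), adult (4, 3 to 5) and between tissues (5, 5 to 6). The 7 called steps became 4 with the floor at the 40th percentile and 4 without the 10.5 and 12.5 dpc arrays, and 4 to 7 with 1 array left out. The 4 slopes became 1 without the filter, and 0 to 4 with 1 array left out. The 6 calls relative to *Ambp* became 2 to 6 with 1 array left out. Signs turned at 16.5 against 12.5 dpc for *Itih5* (-0.06 to 0.60 with 1 array left out). In adult liver they turned for *Ambp* (-0.08 to 0.66) and *Itih3* (-0.17 to 0.68) without adult replicate 2, and for *Itih2* (0.03) under quantile normalization. Between tissues they turned for *Itih1* (0.10, arrays centred on tested genes, an alternative chosen after seeing the data) and *Itih4* (-0.20 to 1.08, the lowest without 14.5 dpc rest of embryo). Slopes turned for *Ambp* (-0.39 and adjusted p = 0.0271 without 10.5 and 12.5 dpc, -0.07 without replicate 1 of 10.5 dpc liver, -0.10 to 0.18 over all left-out arrays), *Itih2* (-0.18 without 10.5 and 12.5 dpc) and *Itih5* (-0.83 to 0.01, the highest without 14.5 dpc rest of embryo). The cause was not tested. With the replicate number as a block the counts were 6, 5, 3, 6 (steps), 4, 5, 3 (slopes) and 6. Deviations of same-numbered arrays correlated at -0.354 to 0.254, so the numbers do not pair them. Results from 12.5 dpc could not be computed without those arrays. The 20th percentile floor limits what can be seen of *Itih1*, *Itih4* and *Pzp* at 10.5 dpc and of *Pzp* outside liver.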
